A study of Mus musculus with 28 samples.

Results

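H3K27 acetylation was followed at 10 genes grouped here under negative feedback on TGF-β signalling. They are Smad6, Smad7, Ski, Skil, Smurf1, Smurf2, Pmepa1, Tgif1, Bambi and Ltbp2. The cells were mouse mammary epithelial cells carried into an epithelial to mesenchymal transition (EMT) by TGF-β. A peak was assigned to one of these genes when its summit lay within 100 kb of a start site of the gene and no start site of another protein-coding gene was nearer. Peaks that overlapped between libraries were joined, which gave 89050 regions, and 176 of these belonged to the 10 genes, 29 at promoters and 147 distal. A region was called promoter when its summit was within 2500 bp of a start site. The libraries form 5 groups of 3: untreated NMuMG cells (0h), cells given 2 ng/ml TGF-β1 for 4 h or for 24 h (4h and 24h), and cells given the same TGF-β for 4 h or 24 h after 30 min with 25 µM UO126 (ERKi 4h and ERKi 24h). UO126 blocks MEK, the kinase that activates ERK, and the TGF-β time points without it received the solvent DMSO. All groups are the same NMuMG subclone, E9, so they show a single cell line of a single origin, and the labels do not say whether replicates were separate cultures. The p-values therefore measure the spread between these libraries. The comparisons ask where acetylation differs from 0h after TGF-β and where the level differs with UO126. No group was kept for 4 h or 24 h without TGF-β, and none had UO126 without it. An effect of TGF-β therefore cannot be told apart from one of solvent or hours in culture. Nor can a lost response to TGF-β be told apart from an effect of UO126 alone. Below, a rise with TGF-β means a higher level than at 0h.

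TGF-β binds a pair of receptor kinases that phosphorylate Smad2 and Smad3, which join Smad4 in the nucleus and switch genes on or off. Several of the genes switched on encode brakes on the same pathway. Smad7 and Smad6 occupy receptors and recruit ubiquitin ligases such as Smurf1 and Smurf2. Pmepa1 is a membrane protein that holds receptor-regulated Smads away from the receptor. Ski, Skil (SnoN) and Tgif1 act in the nucleus as co-repressors of Smad complexes. Bambi is a receptor-like protein without a kinase domain, and Ltbp2 is an extracellular matrix protein related to the proteins that anchor latent TGF-β. H3K27ac marks active promoters and enhancers.

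The regions with the clearest change lay around Pmepa1. Shown here are 3 Pmepa1 regions with a low peak at 0h, or none, a peak in every TGF-β library and a match to a searched motif. Other Pmepa1 regions had such peaks too, and the one 10.1 kb downstream, with more fragments than that 58.2 kb upstream, held no match. Among these others, the region 30.5 kb upstream held an AP-1 site 249 bp from its summit, and its sequence is not shown. Each sequence is 300 bases of mm9 within 500 bp of the summit, written 5′ to 3′ on the minus strand, the strand of Pmepa1. Capitals mark the motif that was searched and found. The first region lies 44.6 kb upstream of the start site, its window is chr2:173146638-173146937, and the capitals are an AP-1 site. The second lies 58.2 kb upstream at chr2:173160261-173160560, and the third lies 17.8 kb downstream, in an intron of Pmepa1, at chr2:173083643-173083942. In both, the capitals are the Smad palindrome, GTCTAGAC.
Pmepa1, 44.6 kb upstream: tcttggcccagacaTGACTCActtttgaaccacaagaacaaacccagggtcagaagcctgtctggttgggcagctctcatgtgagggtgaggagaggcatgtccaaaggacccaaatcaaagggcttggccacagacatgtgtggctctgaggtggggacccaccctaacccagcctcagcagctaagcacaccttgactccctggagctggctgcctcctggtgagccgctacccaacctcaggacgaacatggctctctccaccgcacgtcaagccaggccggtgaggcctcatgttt
Pmepa1, 58.2 kb upstream: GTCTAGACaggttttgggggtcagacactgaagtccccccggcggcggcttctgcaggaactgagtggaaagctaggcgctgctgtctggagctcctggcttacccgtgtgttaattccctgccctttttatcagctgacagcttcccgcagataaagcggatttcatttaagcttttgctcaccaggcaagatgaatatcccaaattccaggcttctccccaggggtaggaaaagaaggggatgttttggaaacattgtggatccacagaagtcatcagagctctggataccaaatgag
Pmepa1, 17.8 kb downstream: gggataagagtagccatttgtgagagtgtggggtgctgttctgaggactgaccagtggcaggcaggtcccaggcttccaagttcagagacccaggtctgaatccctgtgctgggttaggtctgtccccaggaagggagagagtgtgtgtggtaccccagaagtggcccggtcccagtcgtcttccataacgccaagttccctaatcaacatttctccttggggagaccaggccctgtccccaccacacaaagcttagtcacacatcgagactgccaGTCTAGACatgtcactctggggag
The summit is base 278 of the first window, base 292 of the second and base 15 of the third. The windows and motifs were chosen after the values were seen.

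Each peak list gives the fold enrichment at the summit and its p-value, and the number of fragments at the summit and the local background were solved from these. Fragments were scaled between libraries by the median ratio, with factors from 0.777 to 1.37, and are given below as scaled fragments. The libraries held between 50445 and 69180 peaks, with a median of 38 to 57 fragments at the summit, and the number of reads sequenced was not used here. Epithelial identity was checked by promoter peaks. Cdh1, Krt8 and Krt18 had one in 15 of 15 libraries, Cldn4 in 11 and Epcam in none, and the 9 promoters of leukocyte, endothelial, adipocyte and muscle genes had none in any library. A change was tested with limma in the 26934 regions that had a peak in all 15 libraries, with the adjusted p taken over all of them and a threshold of 0.05. Of the 176 regions of the 10 genes, 58 were tested, 16 at promoters and 42 distal, and the other 118 are described by the libraries in which a peak was called. Smad7 had 12 tested regions, Tgif1 11, Smad6 9, Ski, Smurf1 and Pmepa1 7 each, Skil 3 and Smurf2 2. Bambi and Ltbp2 had none. A tested region had to be called at 0h too, so regions that appeared with TGF-β are not among them.

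Acetylation at these genes rose with TGF-β more often than it fell. At 4 h, 13 of 58 regions were higher than at 0h and none was lower, which is 22.4% of the members beside 3.47% higher and 0.167% lower among all regions tested. At 24 h, 17 were higher and 2 lower, 29.3% and 3.45% beside 10.7% and 6.55% overall. The median log2 difference of the 58 regions was 0.34 at 4 h and 0.32 at 24 h, against -0.04 and -0.03 over all regions. 7 of the 13 and 7 of the 17 higher regions belonged to Pmepa1, where every tested region was higher at both times. The rest of the higher regions at 4 h belonged to Smad7 (3), Ski, Skil and Smad6 (1 each), and at 24 h to Smad7 (5), Ski, Skil, Smurf2, Smurf1 and Tgif1 (1 each). Regions near a gene are neighbours on the chromosome and are not independent of each other. Libraries with the same replicate number deviated together, and with the replicate number as a block the counts were 29 higher and 1 lower at 4 h and 31 higher and 4 lower at 24 h. The block also raised the counts over all 26934 regions, to 3227 higher and 1380 lower at 4 h and 5041 higher and 4630 lower at 24 h. The count at 4 h fell to 8 without 0h replicate 1, 6 without 4h replicate 1 and 8 without 4h replicate 3. Over all regions the count fell as well, to 477, 442 and 397 higher in these fits, beside 934 in the full fit. The share called in either direction was 1.8%, 1.67% and 1.57%, beside 3.63%.

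**Figure D1:**
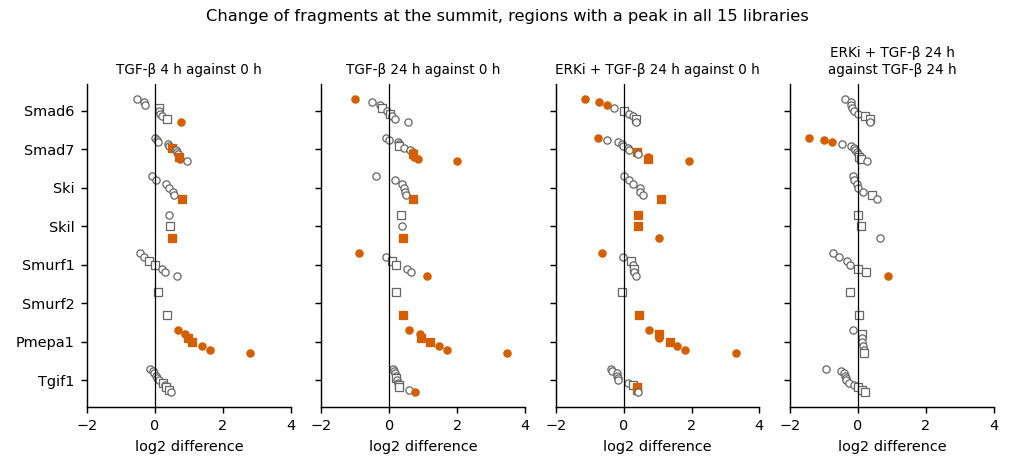
Each panel plots the log2 difference of scaled fragments for the tested regions of 8 genes in the comparison named above it, with squares for promoter and circles for distal regions, and filled symbols for those past the threshold. Every Pmepa1 region lies above 0 in the panels against 0h, with 13 filled symbols at 4 h and 17 filled symbols above 0 at 24 h, and in the last panel 4 are filled, 3 of Smad7 below 0 and 1 of Smurf1 above it.

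The direction of most of these calls depended on the measure. On the deposited fold enrichment, where the fragments at the summit are divided by the local background, 1 member region was called higher and 3 lower at 4 h, and 1 higher and 10 lower at 24 h. Over all 26934 regions these counts were 43 and 12 at 4 h and 607 and 624 at 24 h. The local background itself was higher with TGF-β around the regions that rose. At the Pmepa1 promoter it went from 23.4 scaled fragments at 0h to 75.8 at 4 h and 101 at 24 h, while the fold enrichment went from 6.24 to 3.90 and 2.91. At the Ski promoter the background was 16.0 at 0h and 48.1 at 24 h, and 1.0 kb upstream of Skil it was 37.0 and 65.1. Whether the local background was taken from the ChIP library itself or from an input is not stated. The labels of the 3 input samples give no time or treatment, whereas this background differed between the groups. Why it differed was not tested. The statements on higher and lower below are on scaled fragments unless the fold enrichment is named.

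Pmepa1 (ENSMUSG00000038400, chr2:173049959-173102034, minus strand, mm9) had 28 regions, 2 promoter and 26 distal. Its most acetylated promoter region, at chr2:173098670-173101711 with the summit 510 bp downstream of a start site, held 145, 158 and 148 scaled fragments in the 0h libraries, 308, 294 and 280 at 4 h and 314, 228 and 328 at 24 h. The ERKi 4h libraries held 279, 247 and 238 and the ERKi 24h libraries 335, 283 and 307. Each of the 12 TGF-β libraries was above each 0h library, with or without UO126. The log2 difference from 0h was 0.97 ± 0.14 (SE, n = 3 libraries per group here and below, adjusted p = 0.000546, limma) at 4 h and 0.93 ± 0.14 at 24 h (adjusted p = 0.000144). The second promoter region, 340 bp upstream, was higher by 1.09 ± 0.15 at 4 h and 1.19 ± 0.15 at 24 h, with adjusted p-values of 0.000383 and 3.51e-05.

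The region with the largest difference among the 58 was the distal region 44.6 kb upstream of Pmepa1, at chr2:173146144-173147978 between genes, whose AP-1 site is shown above. It held 11.6, 16.5 and 20.8 scaled fragments at 0h, 109, 96.6 and 133 at 4 h and 168, 144 and 233 at 24 h. With UO126 the values were 93.2, 84.0 and 111 in ERKi 4h and 145, 129 and 216 in ERKi 24h. The groups with TGF-β did not overlap the 0h group. Acetylation rose 7.05-fold at 4 h (95% interval 5.03 to 9.88, adjusted p = 1.66e-05) and 11.2-fold at 24 h (95% interval 7.99 to 15.7, adjusted p = 2.61e-07). This region was higher by fold enrichment as well, from 4.55 at 0h to 7.40 at 4 h and 8.78 at 24 h, with a local background of 2.85, 14.4 and 20.3 scaled fragments.

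Inside the gene, 4 intronic regions were also higher than at 0h at both times. The region 8.9 kb downstream of the start site, at chr2:173092193-173093444, held 94.6, 103 and 98.6 scaled fragments at 0h, 315, 248 and 350 at 4 h, and 407, 241 and 342 at 24 h. In ERKi 4h it held 296, 227 and 333, and in ERKi 24h 386, 291 and 377. All 12 TGF-β libraries exceeded the highest 0h library. The log2 difference was 1.61 ± 0.19 at 4 h and 1.71 ± 0.19 at 24 h. The region 11.6 kb downstream rose by 1.38 ± 0.20 and 1.46 ± 0.20, that at 15.1 kb by 0.88 ± 0.15 and 0.91 ± 0.15, and that at 14.1 kb by 0.67 ± 0.16 and 0.59 ± 0.16. The last of these was the only Pmepa1 region whose calls at 4 h and 24 h were lost without a library. At 4 h that was without 0h replicate 1 or 2 or 4h replicate 1 or 3 (adjusted p 0.0578 to 0.11), and at 24 h without 0h replicate 1 or 24h replicate 1 or 3 (0.0583 to 0.069). The fold enrichment 8.9 kb downstream was 2.09, 2.20 and 1.91 in the 0h, 4h and 24h groups, with the local background at 46.8, 138 and 172 scaled fragments. At 11.6 kb it was 1.79, 1.69 and 1.57. On this measure the other pair was lower with TGF-β. It went from 3.26 to 1.92 and 1.68 at 14.1 kb (log2 differences -0.76 and -0.94, adjusted p = 0.0042 and 0.000262), and from 2.84 at 0h to 1.84 at 24 h at 15.1 kb (-0.53 at 4 h and -0.61 at 24 h, adjusted p = 0.064 and 0.00481).

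Around Pmepa1 new peaks appeared next to those already present at 0h. The number of distal peaks assigned to it was 8, 9 and 12 in the 0h libraries, 18, 17 and 20 at 4 h and 23, 19 and 22 at 24 h. In ERKi 4h there were 17, 20 and 22, and in ERKi 24h 22, 23 and 21. Distal peaks covered 4.57 ± 1.00 kb at 0h, 10.2 ± 1.57 kb at 4 h and 11.8 ± 2.60 kb at 24 h (SD, n = 3). A peak 17.8 kb downstream of the start site, at chr2:173083368-173084119, had no call at 0h and 201, 159 and 255 scaled fragments at 4 h and 266, 157 and 246 at 24 h. The ERKi 4h libraries held 209, 188 and 203 and the ERKi 24h libraries 286, 219 and 302. The region 58.2 kb upstream, at chr2:173159733-173161654, was smaller. It had no call at 0h and 16.6, 17.9 and 25.7 scaled fragments at 4 h, and 38.2, 26.2 and 43.2 at 24 h. The 24h libraries were above the 4h libraries here. Both of these regions hold the Smad palindrome shown above, 269 and 284 bp from their summits. Regions 10.1 kb downstream and 30.5 and 31.6 kb upstream were likewise called in all 12 TGF-β libraries and in no 0h library. A region 12.9 kb downstream was called in all of 4h, 24h and ERKi 24h, in 2 of 3 ERKi 4h libraries and in no 0h library. A region 7.7 kb downstream was called only in the 3 24h libraries (250, 171 and 239 scaled fragments), and a region 24.7 kb downstream only in the 3 0h libraries (21.8, 29.5 and 39.5). A library without a call can still hold fragments there, since a peak must exceed its local background.

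**Figure D2:**
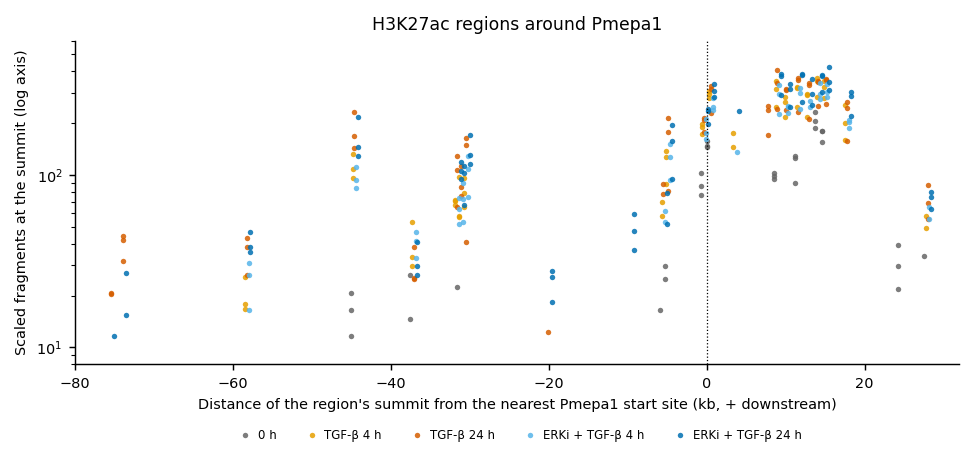
Scaled fragments at the summit (log axis) of each Pmepa1 region in each library that called a peak, against the distance of the summit from the nearest Pmepa1 start site in kb (positive downstream), coloured by group. The 0h points lie below the TGF-β points at the regions called in every library, and at 17.8 kb downstream and 58.2 kb upstream there are no 0h points.

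UO126 did not change Pmepa1 acetylation past the threshold. At the region 44.6 kb upstream, ERKi was 0.851 times the DMSO level at 4 h (95% interval 0.607 to 1.19) and 0.895 times at 24 h (0.638 to 1.25). At the region 8.9 kb downstream the ratios were 0.936 (0.723 to 1.21) and 1.08 (0.835 to 1.40), and at the promoter 0.865 (0.717 to 1.04) and 1.07 (0.891 to 1.29). No tested Pmepa1 region was called between ERKi and DMSO at either time, also with the replicate block. Against 0h, which is shared with the comparisons above, all 7 Pmepa1 regions were higher in ERKi 4h and in ERKi 24h. The largest was again that 44.6 kb upstream, with log2 differences of 2.58 ± 0.25 (adjusted p = 2.52e-05) and 3.32 ± 0.25 (adjusted p = 4.70e-07). The call at 14.1 kb in ERKi 4h (adjusted p = 0.0483) was lost without any of 10 of the 15 libraries (0.0503 to 0.201).

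Smad7 (ENSMUSG00000025880, chr18:75527183-75555589, plus strand) had 38 regions, the most of the 10 genes. Its most acetylated promoter region, 570 bp upstream at chr18:75525966-75526788, held 118, 125 and 161 scaled fragments at 0h, 220, 237 and 203 at 4 h and 231, 181 and 245 at 24 h. With UO126 the values were 188, 216 and 210 in ERKi 4h and 245, 175 and 251 in ERKi 24h. The lowest TGF-β library, at 175, was above the highest 0h library, at 161. The log2 difference was 0.72 ± 0.17 at 4 h (adjusted p = 0.018) and 0.70 ± 0.17 at 24 h (adjusted p = 0.00577). The call at 4 h was lost without 0h replicate 1 or 2 or 4h replicate 1 or 2 (0.0615 to 0.108). The neighbouring promoter region, 120 bp downstream, rose by 0.50 ± 0.12 at 4 h (adjusted p = 0.0199). At 24 h it differed by 0.29 ± 0.12 (adjusted p = 0.0949, and 0.0146 with the replicate block). Its call at 4 h was lost without 0h replicate 1 or 2 or any 4h library (0.0586 to 0.0769). A region 6.7 kb downstream rose by 0.74 ± 0.16 and 0.71 ± 0.16 (adjusted p = 0.0128 and 0.00413), and its call at 4 h was lost without 0h replicate 1, 4h replicate 1 or 4h replicate 3 (0.0501 to 0.0938). With peaks within 1000 bp merged, its differences were 0.37 at 4 h and 0.48 at 24 h (adjusted p = 0.4405 and 0.1106). The fold enrichment of the promoter region 570 bp upstream was 3.07 at 0h and 2.68 at 24 h, over local backgrounds of 43.8 and 81.5 scaled fragments.

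Farther from the gene, some regions of Smad7 rose under TGF-β, some were lower under UO126 and others did neither. Those 9.9, 24.9 and 42.4 kb upstream passed the threshold in no comparison, with or without the replicate block, and the means at 24.9 kb were 192, 191 and 192 scaled fragments at 0h, 4 h and 24 h. The region 35.5 kb downstream differed from 0h by 0.68 ± 0.21 at 4 h (adjusted p = 0.0977, and 8.64e-05 with the replicate block). The region 68.6 kb upstream, at chr18:75458268-75459681 between genes, held 16.0, 18.9 and 25.2 scaled fragments at 0h, 47.2, 26.2 and 45.0 at 4 h and 93.8, 44.5 and 118 at 24 h. In ERKi 4h it held 51.5, 30.9 and 50.7, and in ERKi 24h 88.1, 42.5 and 109. Replicate 2 was the lowest library in each group with TGF-β. The region rose by 2.01 ± 0.39 at 24 h (adjusted p = 0.0013), while the difference at 4 h was 0.96 ± 0.39 (adjusted p = 0.249, and 0.00118 with the replicate block). Its ERKi to DMSO ratio was 1.13 at 4 h (95% interval 0.670 to 1.91) and 0.937 at 24 h (0.555 to 1.58). Still farther upstream, 87.1 and 87.8 kb from the start site and inside an intron of Dym, 2 regions had a peak in all 12 TGF-β libraries and in no 0h library. The first of them held 29.7, 29.8 and 44.1 scaled fragments at 4 h, 73.8, 29.7 and 79.1 at 24 h, and 87.4, 60.5 and 114 in ERKi 24h.

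Among the 58 tested regions the lowest level under UO126 relative to DMSO was 87.3 kb downstream of the Smad7 start site, in an intron of Ctif, at chr18:75616668-75617745. It held 88.1, 77.9 and 130 scaled fragments at 0h, 162, 126 and 170 at 4 h and 166, 123 and 187 at 24 h. With UO126 it held 75.7, 61.8 and 78.1 at 4 h and 48.5, 65.7 and 59.7 at 24 h. The ERKi libraries lay below every DMSO library of the same time, and those of ERKi 24h below every 0h library. With UO126 the region was at 0.472 times the DMSO level at 4 h (95% interval 0.352 to 0.633, adjusted p = 0.0426) and 0.368 times at 24 h (0.274 to 0.493, adjusted p = 0.000728). The call at 4 h was lost without any of 8 libraries, 0h replicate 1, 24h replicate 1 and each of the 4h and ERKi 4h libraries (0.0583 to 0.283). The call at 24 h held without any library. Without UO126 the difference from 0h at 4 h was 0.65 ± 0.22 (adjusted p = 0.124, and 0.00184 with the replicate block). The region rose at 24 h by 0.70 ± 0.22 (adjusted p = 0.0312), a call lost without 0h replicate 1 or 2 or 24h replicate 1 or 3 (0.0991 to 0.142). In ERKi 24h it was lower than at 0h by -0.75 ± 0.22 (adjusted p = 0.0202), which was lost without 0h replicate 3 or ERKi 24h replicate 1 (0.0972 to 0.117). Its fold enrichment was 4.60 at 24 h and 4.56 in ERKi 24h, over local backgrounds of 33.9 and 11.9 scaled fragments.

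The regions next to it were also lower in ERKi 24h than in 24h on scaled fragments. That at 85.7 kb, at chr18:75614324-75616374, held 64.1, 67.3 and 103 scaled fragments at 0h, 128, 90.6 and 140 at 4 h and 135, 130 and 145 at 24 h. In ERKi 4h there were 75.7, 51.9 and 59.8, and in ERKi 24h 80.0, 59.2 and 66.7. At both times the ERKi libraries were below the DMSO libraries. It rose by 0.84 ± 0.22 at 24 h (adjusted p = 0.0123, lost without 0h replicate 1 or 2, 0.0525 to 0.0696) and was at 0.499 times the 24h level in ERKi 24h (95% interval 0.370 to 0.673, adjusted p = 0.0101). At 4 h the difference under UO126 was -0.93 ± 0.22 (adjusted p = 0.128, and 0.000384 with the replicate block). The region at 95.3 kb differed by -0.77 ± 0.21 between ERKi 24h and 24h (adjusted p = 0.029), which was lost without 24h replicate 1 or 3 or ERKi 24h replicate 1 (0.0782 to 0.125). Both differences turned on the fold enrichment, which was 3.94 at 24 h and 5.17 in ERKi 24h at 85.7 kb (log2 difference 0.33, adjusted p = 0.354), and 7.48 and 8.79 at 95.3 kb (0.17, adjusted p = 0.563). Against 0h at 4 h, the differences at 78.2, 85.7 and 95.3 kb were 0.42 ± 0.26, 0.62 ± 0.22 and 0.39 ± 0.21, and these passed the threshold only with the replicate block (adjusted p = 0.0126, 0.00453 and 0.0348). The 3 regions from 85.7 to 95.3 kb lie within 10 kb of each other and count as neighbours. They are nearer to the start site of Smad7 than to that of Ctif, the gene that contains them, and which gene they act on was not measured.

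**Figure D3:**
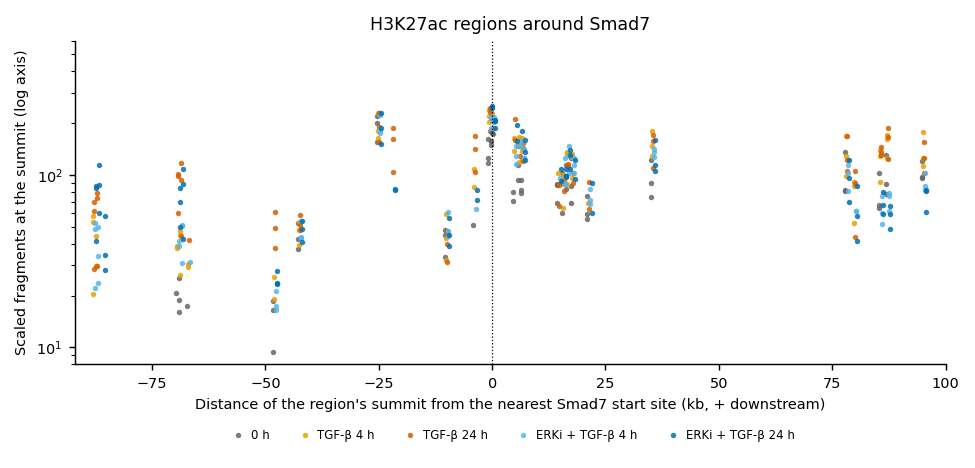
Scaled fragments at the summit (log axis) of each Smad7 region in each library that called a peak, against the distance of the summit from the nearest Smad7 start site in kb (positive downstream), coloured by group. At 87.3 kb downstream the ERKi 24h points (48.5 to 65.7) lie below the 24h points (123 to 187), whereas at 68.6 kb upstream the ERKi 24h and 24h points overlap above the 0h points.

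Smad6 (ENSMUSG00000036867, chr9:63800953-63869866, minus strand), the inhibitory Smad best known for acting on BMP receptors, did not follow Smad7 at its promoter. The promoter region 557 bp upstream held 147, 137 and 171 scaled fragments at 0h, 175, 141 and 178 at 4 h and 149, 91.3 and 165 at 24 h. It held 165, 132 and 182 in ERKi 4h and 139, 154 and 165 in ERKi 24h, so that the groups overlapped throughout, and it passed the threshold in none of the 6 comparisons, with or without the block. Its log2 difference from 0h was 0.12 ± 0.20 at 4 h and -0.20 ± 0.20 at 24 h. A distal region 28.4 kb upstream, at chr9:63896774-63899395, held 88.8, 72.0 and 101 at 0h and 150, 119 and 176 at 4 h. It rose by 0.76 ± 0.19 at 4 h (adjusted p = 0.0319), a call lost without 0h replicate 1 or 2 or 4h replicate 1 or 3 (0.0959 to 0.189), and at 24 h differed by 0.55 ± 0.19 (adjusted p = 0.0577, and 0.000156 with the replicate block).

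An intronic region of Smad6 fell. It lies 42.0 kb downstream of the start site at chr9:63827208-63828915 and held 43.7, 53.1 and 62.5 scaled fragments at 0h, 25.4, 40.5 and 46.8 at 4 h and 16.5, 36.5 and 28.8 at 24 h. In ERKi 4h it held 34.0, 38.3 and 45.6 and in ERKi 24h 20.6, 28.3 and 23.3. The 24h and ERKi 24h libraries were all below the 0h libraries. The log2 difference was -1.02 ± 0.30 at 24 h (adjusted p = 0.0218) and -1.14 ± 0.30 in ERKi 24h (adjusted p = 0.0104). The call at 24 h was lost without 0h replicate 2 or 3 or 24h replicate 1 (0.0521 to 0.149), and that in ERKi 24h without ERKi 24h replicate 1 (0.0502). Smad6 regions 56.2 and 80.4 kb downstream were also lower in ERKi 24h than at 0h, by -0.72 ± 0.25 and -0.48 ± 0.16 (adjusted p = 0.0459 and 0.0375). The first call was lost without any of 11 libraries (0.0506 to 0.165). The second was lost without any 0h library or ERKi 24h replicate 1 or 2 (0.0723 to 0.141).

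The co-repressors Ski and Skil each had a promoter region that rose on scaled fragments. Ski (ENSMUSG00000029050, chr4:154528184-154596701, minus strand) held 78.6, 75.6 and 54.8 scaled fragments at its promoter region (chr4:154594693-154596646, summit 83 bp downstream) at 0h, 130, 120 and 108 at 4 h and 136, 105 and 95.6 at 24 h. The ERKi 4h libraries held 137, 132 and 117 and the ERKi 24h libraries 154, 169 and 122. Every TGF-β library was above every 0h library. The log2 difference was 0.79 ± 0.18 at 4 h (adjusted p = 0.0193) and 0.69 ± 0.18 at 24 h (adjusted p = 0.0139). The first call was lost without 0h replicate 3 or 4h replicate 1 (0.0877 to 0.101) and the second without 0h replicate 3 or 24h replicate 1 (0.0824 to 0.0883). In ERKi 4h and ERKi 24h it was higher than at 0h by 0.90 ± 0.18 and 1.09 ± 0.18 (adjusted p = 0.00743 and 0.000443). ERKi 24h was 1.33 times the 24h level (95% interval 1.03 to 1.70, adjusted p = 0.221, and 0.00921 with the replicate block). The fold enrichment at the promoter was 4.14, 2.64 and 2.36 for 0h, 4h and 24h, so that on this measure it was lower at 24 h (log2 difference -0.81, adjusted p = 0.0111). A region 4.6 kb downstream, at chr4:154591812-154592921, had no peak at 0h and 129, 110 and 179 scaled fragments at 4 h and 161, 83.3 and 173 at 24 h. With UO126 the values were 119, 112 and 132 in ERKi 4h and 129, 118 and 180 in ERKi 24h. Among the other 6 tested regions of Ski, none passed the threshold in any comparison. With the replicate block, regions 47.7, 48.5 and 49.2 kb downstream, inside the gene, were higher than at 0h at both 4 h and 24 h.

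Skil (ENSMUSG00000027660, chr3:30993980-31021499, plus strand) had the strongest promoter signal of the 10 genes. Its most acetylated promoter region, 202 bp downstream, held 270, 342 and 324 scaled fragments at 0h, 422, 430 and 422 at 4 h and 426, 327 and 448 at 24 h. In ERKi 4h it held 406, 387 and 385 and in ERKi 24h 441, 353 and 474. At 24 h, replicate 2 lay within the 0h range. The difference was 0.45 ± 0.14 at 4 h (adjusted p = 0.0997, and 0.00454 with the replicate block) and 0.35 ± 0.14 at 24 h (adjusted p = 0.101, and 0.0132 with the block). The call in ERKi 24h against 0h (0.43 ± 0.14, adjusted p = 0.038) was lost without 0h replicate 1 or 3 or ERKi 24h replicate 1 or 3 (0.062 to 0.166). The fold enrichment of this region was 8.17 at 0h and 5.94 in ERKi 24h, a log2 difference of -0.51 (adjusted p = 0.0102).

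The neighbouring promoter region of Skil, 1008 bp upstream at chr3:30992144-30993207, held 233, 239 and 250 scaled fragments at 0h, 327, 366 and 324 at 4 h and 357, 273 and 331 at 24 h. In ERKi 4h there were 328, 314 and 345, and in ERKi 24h 349, 277 and 339. All 12 TGF-β libraries were above the 0h libraries. It rose by 0.49 ± 0.13 at 4 h (adjusted p = 0.0354) and 0.40 ± 0.13 at 24 h (adjusted p = 0.0345). The call at 4 h was lost without any 0h or 4h library or ERKi 4h replicate 1 (0.0528 to 0.139), and that at 24 h without any 0h library or 24h replicate 1 or 3 (0.0595 to 0.157). A distal region 18.8 kb upstream was higher in ERKi 24h than at 0h by 1.03 ± 0.28 (adjusted p = 0.0137), with 20.4, 29.5 and 25.2 scaled fragments at 0h and 36.0, 63.1 and 56.6 in ERKi 24h. That call was lost without 0h replicate 1 or ERKi 24h replicate 2 or 3 (0.0528 to 0.0652).

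**Figure D4:**
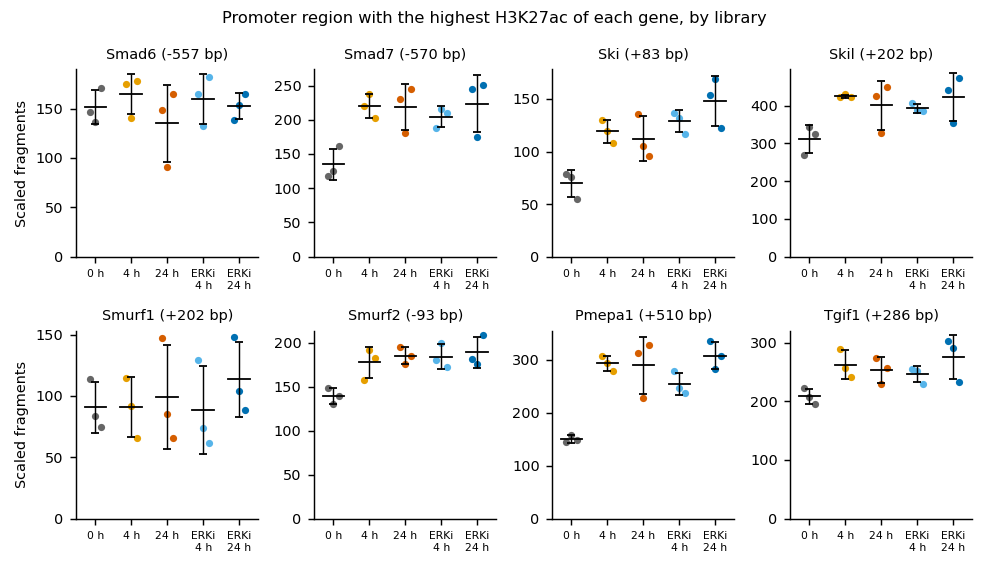
Scaled fragments, on axes from 0, in each library (points) at the most acetylated promoter region of 8 genes, with the 5 groups on the horizontal axis and the mean and SD of each group as a line and bars (n = 3). Pmepa1, Ski and Smad7 have all TGF-β libraries above the 0h libraries, while the groups of Smad6 and Smurf1 overlap.

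Tgif1 (ENSMUSG00000047407, chr17:71193545-71202886, minus strand), a homeodomain co-repressor, carried 3 tested promoter regions, none of which passed the threshold at 4 h or 24 h without the replicate block. The most acetylated, 286 bp downstream at chr17:71199429-71200453, held 222, 207 and 196 scaled fragments at 0h, 289, 257 and 241 at 4 h and 274, 230 and 257 at 24 h, so each group with TGF-β began just above the highest 0h library. It held 255, 252 and 230 in ERKi 4h and 303, 291 and 232 in ERKi 24h. The difference was 0.33 ± 0.13 at 4 h (adjusted p = 0.234, and 0.0136 with the replicate block), 0.28 ± 0.13 at 24 h (adjusted p = 0.161, and 0.0183 with the block) and 0.39 ± 0.13 in ERKi 24h (adjusted p = 0.0393). The last call was lost without any 0h library or ERKi 24h replicate 1 or 2 (0.0522 to 0.165). The promoter region with its summit 0.7 kb downstream of another start site was also higher in ERKi 24h than at 0h, by 0.40 ± 0.13 (adjusted p = 0.0292), which was lost without 0h replicate 1 or 2 or ERKi 24h replicate 1 or 3 (0.0543 to 0.141). Its difference from 0h at 4 h was 0.41 ± 0.13 (adjusted p = 0.0873, and 0.0013 with the block).

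A distal region assigned to Tgif1, 91.8 kb downstream and inside an intron of Dlgap1 at chr17:71102289-71105112, rose at 24 h. It held 182, 165 and 210 scaled fragments at 0h, 277, 212 and 297 at 4 h and 337, 261 and 357 at 24 h, all of the 24h libraries being above 0h. In ERKi 4h it held 183, 210 and 231, overlapping 0h, and in ERKi 24h 247, 227 and 274. The log2 difference was 0.77 ± 0.16 at 24 h (adjusted p = 0.00221), and at 4 h 0.49 ± 0.16 (adjusted p = 0.117, and 0.000741 with the replicate block). ERKi 24h was 0.788 times the 24h level (95% interval 0.636 to 0.978, adjusted p = 0.232, and 0.0107 with the block). A region 94.7 kb downstream had 166, 175 and 165 scaled fragments at 0h and 178, 151 and 190 at 4 h and was called in no 24h library. Also within Dlgap1, the region 90.2 kb from Tgif1 had no peak at 0h and 167, 139 and 173 scaled fragments at 24 h, with 118, 125 and 138 in ERKi 4h. The region 63.9 kb downstream was low, at 24.3, 37.7 and 32.9 at 24 h, and was called in no 0h or ERKi library. A region 5.8 kb upstream of Tgif1 was called in the 3 ERKi 24h libraries alone, at 63.1, 59.2 and 58.1 scaled fragments. The promoter region at chr17:71195321-71196163 was called in every DMSO and 0h library, in 1 of 3 ERKi 4h libraries and in no ERKi 24h library.

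The ubiquitin ligase genes differed from each other. Smurf2 (ENSMUSG00000018363, chr11:106681380-106782029, minus strand) had only 3 regions. Its promoter region, 93 bp upstream at chr11:106780829-106782116, held 149, 130 and 139 scaled fragments at 0h, 158, 192 and 183 at 4 h and 195, 176 and 185 at 24 h. The ERKi 4h libraries held 180, 200 and 172 and the ERKi 24h libraries 182, 176 and 209. All TGF-β libraries lay above the 0h libraries, by a small margin. The difference was 0.35 ± 0.13 at 4 h (adjusted p = 0.185, and 0.0211 with the replicate block), 0.41 ± 0.13 at 24 h (adjusted p = 0.0325) and 0.44 ± 0.13 in ERKi 24h (adjusted p = 0.0211). The call at 24 h was lost without 0h replicate 2 or 3 or 24h replicate 1 or 3 (0.0763 to 0.118), and that in ERKi 24h without 0h replicate 2 or 3 or ERKi 24h replicate 3 (0.0531 to 0.105). By fold enrichment it went from 12.1 at 0h to 13.5 at 24 h, with a local background of 11.0 and 13.3.

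Smurf1 (ENSMUSG00000038780, chr5:145637364-145726716, minus strand) had 28 regions, and its promoter did not pass the threshold in any comparison, with or without the block. The promoter region 202 bp downstream held 114, 83.8 and 74.5 scaled fragments at 0h, 115, 91.8 and 66.1 at 4 h and 147, 85.6 and 65.8 at 24 h. With UO126 the values were 129, 74.1 and 61.9 in ERKi 4h and 148, 104 and 88.4 in ERKi 24h. Replicate 1 was the highest library in all 5 groups. Its distal regions moved in opposite directions. The intronic region 29.9 kb downstream, at chr5:145696223-145698468, held 103, 76.8 and 104 scaled fragments at 0h, 67.3, 69.1 and 71.6 at 4 h and 41.7, 59.3 and 51.4 at 24 h, but 76.7, 84.0 and 108 in ERKi 4h and 75.6, 92.7 and 110 in ERKi 24h. The ERKi 24h libraries overlapped 0h and lay above every 24h library.

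At 24 h that region was lower than at 0h by -0.90 ± 0.21 (adjusted p = 0.00492), and it was 1.82 times higher in ERKi 24h than in 24h (95% interval 1.38 to 2.42, adjusted p = 0.0162). The second call was lost without 24h replicate 1 or ERKi 24h replicate 3 (0.0806 to 0.0842). On the fold enrichment neither call passed (log2 differences -0.29 and 0.45, adjusted p = 0.2315 and 0.08745). The region 12.8 kb upstream, at chr5:145739191-145740380, went the other way. It held 34.2, 24.8 and 43.8 scaled fragments at 0h, 49.9, 47.7 and 61.5 at 4 h and 69.5, 65.0 and 82.2 at 24 h, against 37.9, 45.7 and 45.6 in ERKi 4h and 41.9, 38.6 and 48.1 in ERKi 24h. It rose by 1.11 ± 0.23 at 24 h (adjusted p = 0.00242), and ERKi 24h was 0.593 times the 24h level (95% interval 0.434 to 0.812, adjusted p = 0.0572, and 0.00114 with the replicate block). On the fold enrichment the difference from 0h at 24 h was 0.23 (adjusted p = 0.524). Another intronic region, 35.3 kb downstream, was lower in ERKi 24h than at 0h by -0.65 ± 0.22 (adjusted p = 0.0427), which was lost without any of 7 libraries (0.0501 to 0.206). A region 31.7 kb downstream was called only at 0h, with 56.8, 56.7 and 59.2 scaled fragments. Other intronic regions of Smurf1 were called in no 24h library. That 64.5 kb downstream was called in 2 of 3 0h libraries and held 68.0, 68.0 and 102 scaled fragments in ERKi 4h and 72.0, 77.2 and 107 in ERKi 24h. That at 54.1 kb held 64.8, 55.5 and 83.3 at 0h and 55.3, 58.1 and 91.3 in ERKi 4h, and that at 50.4 kb was called in 1 0h library and in the 3 ERKi 24h libraries, at 38.2, 54.1 and 48.8. The number of distal Smurf1 peaks was 14, 13 and 16 at 0h, 11, 10 and 11 at 24 h and 17, 15 and 16 in ERKi 24h.

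Bambi (ENSMUSG00000024232, chr18:3507955-3516402, plus strand) and Ltbp2 (ENSMUSG00000002020, chr12:86124162-86217482, minus strand) carried little H3K27ac. Bambi had no promoter peak in any library. Its distal region 27.1 kb upstream, at chr18:3480568-3481077, was called in 1 4h library, at 11.0 scaled fragments, and in all 24h libraries, at 12.2, 18.3 and 18.5, and in no 0h or ERKi library. The fragments behind these calls are few. Ltbp2 gained distal peaks at 24 h. The region 8.3 kb upstream, at chr12:86225370-86226116, held 75.6, 31.9 and 82.2 scaled fragments at 24 h and 43.3, 30.9 and 52.7 in ERKi 24h, and was called in no other library. The region 9.1 kb upstream held 47.8, 20.5 and 68.9 at 24 h and was called in 2 of 3 ERKi 24h libraries. A promoter region inside the gene, at chr12:86142396-86143456, was called in all ERKi 24h libraries, at 13.2, 18.0 and 17.8, and in 1 ERKi 4h library.

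Of the 58 tested regions, few differed between ERKi and DMSO cells. At 4 h none was higher and 1 lower than with DMSO (1.72% of the members), beside 0.00743% higher and 0.223% lower among all regions. At 24 h 1 was higher and 3 lower (1.72% and 5.17%), beside 2.99% and 4.14%, so these shares are near the background. The median log2 difference was -0.05 at 4 h and -0.03 at 24 h. The 4 calls at 24 h are the 3 Smad7 regions 85.7 to 95.3 kb downstream and the Smurf1 region 29.9 kb downstream, and 2 were left without 24h replicate 1. In that fit 286 of all regions were higher and 784 lower, beside 805 and 1114 in the full fit. With the replicate block the counts were 5 lower at 4 h, and 6 higher and 11 lower at 24 h, beside 226 higher and 874 lower, and 3594 higher and 3782 lower, of all 26934 regions. Against 0h, 12 regions were higher and none lower in ERKi 4h (20.7% beside 3.69% higher and 1.49% lower overall), and 18 were higher and 5 lower in ERKi 24h (31.0% and 8.62%, beside 11.3% and 8.53%). These use the same 0h libraries as the comparisons of 4h and 24h. The count in ERKi 4h was 26 with the block, beside 3607 higher and 2728 lower over all regions. It was 7 without ERKi 4h replicate 1 or 3, where 2.35% and 2.6% of all regions were called. The count in ERKi 24h was 14 without 0h replicate 3 and 13 without ERKi 24h replicate 1, where 15.7% and 13.9% of all regions were called. In the full fit these shares were 5.18% for ERKi 4h and 19.8% for ERKi 24h. Whether the effect of UO126 differed between 24 h and 4 h was tested as an interaction. In the fit without the replicate block it was called in 0 of 26934 regions, and 0 of the 58 had an unadjusted p under 0.05. The interaction with the block is not given here.

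Among all 176 regions, a region was counted as gained or lost when 3 of 3 libraries in 1 group and 0 of 3 in its counterpart had called it. At 4 h against 0h 11 were gained and 2 lost, 6.25% and 1.14% beside 1.15% and 0.396% of all 89050 regions. At 24 h 21 were gained and 5 lost, 11.9% and 2.84% beside 4.91% and 2.07%. Pmepa1 accounted for 6 of the 11 and 8 of the 21 gained. Between ERKi 4h and 4h none was gained or lost, beside 0.221% and 0.314%, and between ERKi 24h and 24h 9 were gained and 4 lost, 5.11% and 2.27% beside 1.49% and 1.21%. Of those 9, Smurf1 had 4. ERKi 4h against 0h gave 9 gained and 2 lost (beside 1.35% and 0.649%), and ERKi 24h against 0h 19 and 3 (beside 4.38% and 1.8%). Smad7 gained 3 regions at 4 h and 4 at 24 h and lost none.

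Distal peaks of the 10 genes together made up 1.56 ± 0.0144 of every 1000 peaks at 0h (SD, n = 3), 1.82 ± 0.201 at 4 h, 1.84 ± 0.114 at 24 h, 1.81 ± 0.0411 in ERKi 4h and 1.83 ± 0.173 in ERKi 24h. In numbers these were 82 to 94, 89 to 129, 109 to 122, 102 to 118 and 109 to 124 peaks per library. Per 1000 peaks the lowest TGF-β library was 4h replicate 2, at 1.59, beside 1.58 in the highest 0h library. In numbers of peaks the same library, at 89, was below 0h replicate 3, at 94. The difference from 0h was 0.252 at 4 h, 0.278 at 24 h, 0.248 in ERKi 4h and 0.267 in ERKi 24h, each with a two-sided exact permutation p of 0.1, the smallest that 3 libraries against 3 allow. With a limit of 50 kb from the start site the differences were 0.167 at 4 h (exact p = 0.3), 0.153 at 24 h, 0.16 in ERKi 4h and 0.152 in ERKi 24h (exact p = 0.1 each). The unscaled number of peaks was 18.7 higher at 4 h (exact p = 0.2). ERKi and DMSO differed by -0.0039 at 4 h (exact p = 1) and -0.0104 at 24 h (exact p = 0.9). By gene, the number of distal peaks of Smad7 was 21, 22 and 30 at 0h and 28, 32 and 35 at 24 h, and that of Tgif1 was 12, 16 and 13 and 17, 18 and 23. Of the 147 distal regions, 97 lay in introns, 48 between genes and 2 in exons.

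**Figure D5:**
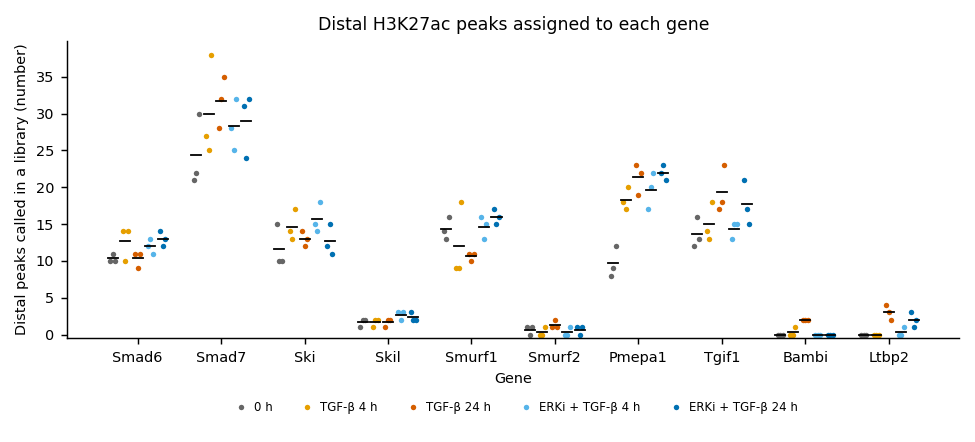
The number of distal H3K27ac peaks assigned to each gene in each library (points, with the group mean as a bar), coloured by group. Pmepa1 has 8 to 12 at 0h and 17 to 23 in every library with TGF-β, and Bambi and Ltbp2 have none at 0h.

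Other genes of the pathway were counted in the same way in 3 lists. Regions of 13 ligands, receptors and signalling Smads (49 tested) were higher in 1 and lower in 1 at 4 h (2.04% each). At 24 h 1 was higher and 7 lower (2.04% and 14.3%), and the median log2 differences were -0.05 and -0.22. Those of 9 other inhibitors (44 tested) were higher in 2 at 4 h (4.55%), and higher in 6 and lower in 8 at 24 h (13.6% and 18.2%), with medians of -0.01 and -0.07. Those of 13 target genes (54 tested) were higher in 4 at 4 h (7.41%), and higher in 14 and lower in 7 at 24 h (25.9% and 13.0%), with medians of 0.13 and 0.07. Over all regions 3.47% were higher and 0.167% lower at 4 h, and 10.7% and 6.55% at 24 h. Of the members 22.4% were higher at 4 h and 29.3% at 24 h, so at 24 h the share of the target genes was near theirs. Between ERKi 24h and 24h the counts were 3 higher and 2 lower (6.12% and 4.08%), 5 and 2 (11.4% and 4.55%), and 0 and 1 (0% and 1.85%), beside 2.99% and 4.14% of all regions. Between ERKi 4h and 4h none in any list passed, beside 0.00743% and 0.223%. Against 0h, ERKi 4h gave 1 higher and 3 lower (2.04% and 6.12%), 2 and 1 (4.55% and 2.27%), and 4 and 0 (7.41% and 0%), beside 3.69% and 1.49%. ERKi 24h gave 3 and 8 (6.12% and 16.3%), 5 and 2 (11.4% and 4.55%), and 11 and 6 (20.4% and 11.1%), beside 11.3% and 8.53%.

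Motifs were searched on both strands within 500 bp of each summit, as exact letters. The Smad palindrome GTCTAGAC was found in 5 of 176 member regions (2.84%, beside 1.32% of all regions). These were the Pmepa1 pair shown above and 3 regions of Smad7, among them both tested promoter regions, which share 1 site that lies between them, 217 bp from one summit and 473 bp from the other. An AP-1 site, TGAGTCA or on the other strand TGACTCA, was found in 60 (34.1%, beside 35.3%). The GC-rich Smad site GGCGCC was found in 27 (15.3%, beside 11.4%) and the CAGA box AGCCAGACA, or TGTCTGGCT, in 4 (2.27%, beside 2.36%). Of the 19 tested regions that were higher at 4 h or 24 h, 2 held the palindrome, the Smad7 promoter regions with their shared site (10.5%, beside 1.08% of all tested regions). An AP-1 site was in 6 (31.6%, beside 29.5%), the GC-rich site in 6 (31.6%, beside 26.1%) and the CAGA box in none (beside 2.01%). A match is a stretch of letters and binding was not measured.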

How the data were processed

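H3K27ac ChIP-seq was analysed in 15 libraries of NMuMG cells. The authors used Bowtie for alignment to mm9 and MACS2, at default settings, for peaks library by library. The control used in peak calling and the library totals are not given in the sources used here. The deposited lists give the summit's fold enrichment (a ratio of pileup to local background), the -log10 p and -log10 q, and a score that was not used. The 10 RNA-seq and 3 input samples were not analysed here.

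The number of fragments at the summit and in the local background came from solving the fold enrichment, as (fragments + 1) / (background + 1), and -log10 p, as the upper Poisson tail. The solution returned -log10 p within 0.005 in all but 25 of 893719 peaks, none of them at these genes. Overlapping peaks were merged, and the log2 fragments of the 26934 regions with a peak in all 15 libraries were scaled by the median ratio and fitted with limma 3.58.1 (R 4.3.3), with the 5 groups in 1 model and Benjamini-Hochberg adjustment over all regions. Other steps used Python 3.11.15, and the fit was tested on simulated data. The simulated noise was drawn independently for each library. That test therefore does not cover libraries that deviate together, as those with one replicate number did here. The 95% intervals are normal intervals from the limma standard error, and no counting interval was made. Counts of peaks were compared by exact permutation tests. Replicate numbers are shared by all groups. Libraries with one number in different groups deviated together, with a correlation above 0.1 in 30 of 30 pairs (mean 0.581, lowest 0.336, and -0.284 between different numbers), so the fit with the number as a block is given beside the counts and beside named values whose call it changes. The labels do not say what the number marks.

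The genes, lists and comparisons were chosen with earlier results of these data known. The regions named are the most acetylated promoter region of each gene, up to 5 called regions in each direction per comparison by adjusted p, and up to 3 regions per direction called in one group only by mean fragments. The other regions were named after their values were seen. Start sites and genes are those of the mm9 annotation. A p that misses the threshold does not show that values did not differ.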

Additional observations from a re-analysis of the deposited data

How the results depend on the processing

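The regions named in the text had 72 calls, not all of them given above. These calls kept their direction under every alternative that gave a value but the deposited fold enrichment. All 72 kept their side of the threshold with the replicate block. No longer past the threshold were 14 with peaks within 1000 bp merged, 6 with regions in at least 3 libraries and 1 with quantile normalization. A -log10 q of at least 10 gave a value for 42, and 10 of these no longer passed. Without 1 library at a time, 34 of the 72 were lost at least once and none reversed. Among calls not given above, that 1.0 kb upstream of Skil in ERKi 4h against 0h was lost without any of 13 libraries. In the same comparison, the call 0.6 kb upstream of Smad7 was lost without any of 6. On the fold enrichment, 6 kept their call, 18 no longer passed and 48 reversed. The cause of these changes was not tested.

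The comparisons are given in the order 4h, 24h, ERKi 4h and ERKi 24h against 0h, ERKi 4h against 4h and ERKi 24h against 24h. Of 58 tested member regions, 13, 19, 12, 23, 1 and 4 passed the threshold in either direction. Over all regions tested the shares were 3.63%, 17.3%, 5.18%, 19.8%, 0.23% and 7.12%. With the replicate block they were 30, 35, 26, 33, 5 and 17 of 58, beside 17.1%, 35.9%, 23.5%, 42.0%, 4.08% and 27.4% of all regions. On the fold enrichment they were 4, 11, 3, 14, 0 and 1 of 58, beside 0.204%, 4.57%, 0.382%, 8.32%, 0% and 1.21%. With regions in at least 3 libraries they were 26, 54, 25, 55, 0 and 18 of 136, beside 2.61%, 21.6%, 3.67%, 22.3%, 0.154% and 8.38%. With -log10 q of at least 10 they were 7, 9, 4, 10, 0 and 2 of 38, beside 1.84%, 8.87%, 2.03%, 12.2%, 0.0398% and 2.68%. Merging peaks within 1000 bp gave 6, 4 and 14 of 42 for 4h, ERKi 4h and ERKi 24h against 0h, beside 3.85%, 5.71% and 21.3% of all regions. A limit of 50 kb gave 0 and 1 of 43 for the ERKi comparisons at 4 h and 24 h, beside 0.23% and 7.12%. Leaving out 1 library gave 6 to 14, 13 to 24, 7 to 14, 13 to 25, 0 to 1 and 2 to 5 of 58 to 61 tested. Over all regions the shares were then 1.57% to 4.49%, 11.9% to 18.3%, 2.35% to 6.11%, 13.9% to 20.9%, 0.0222% to 0.259% and 3.87% to 7.07%.

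Regions called in one group only numbered 13, 26, 11, 22, 0 and 13 of 176 member regions, with the shares over all regions given above. For the settings below such shares are not given, and a stricter q or merging also changes the number of member regions. These counts therefore cannot be set beside a background. With -log10 q of at least 10 they were 8 at 4h, 12 at 24h, 12 in ERKi 24h, 1 for ERKi 4h against 4h and 3 for ERKi 24h against 24h. With merging within 1000 bp they were 5, 12, 5 and 13 against 0h and 7 for ERKi 24h against 24h. With a peak over at least 0.5 of the region they were 7 and 13 for ERKi 4h and ERKi 24h against 0h and 4 for ERKi 24h against 24h. Leaving out 1 library gave 13 to 16, 26 to 32, 11 to 15, 24 to 30, 0 to 3 and 13 to 16. The distal share differed by 0.189 to 0.368, 0.212 to 0.318, 0.23 to 0.271, 0.211 to 0.367, -0.12 to 0.0591 and -0.0668 to 0.0889 without 1 library, and the unscaled number of distal peaks was higher by 3 and 1 for the ERKi comparisons.

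Reversed log2 differences on the fold enrichment, in the order 4h, 24h, ERKi 4h and ERKi 24h against 0h where 4 are given, were as follows. Pmepa1 had -0.68, -1.08, -0.79 and -1.13 at 0.5 kb downstream, -0.6, -0.82, -0.54 and -0.8 at 0.3 kb upstream, -0.07, -0.16, -0.0004 and -0.19 at 11.6 kb, -0.76, -0.94, -0.77 and -0.93 at 14.1 kb and -0.53, -0.61, -0.47 and -0.62 at 15.1 kb downstream, and -0.12 at 24h and -0.16 in ERKi 24h at 8.9 kb. Ski had -0.64, -0.81, -0.62 and -0.78 at its promoter. Skil had -0.31, -0.37, -0.27 and -0.51 at 1.0 kb upstream and -0.51 in ERKi 24h at 0.2 kb. Smad7 had -0.1, -0.22, -0.09 and -0.41 at 6.7 kb, -0.01, -0.16 and -0.15 (4h, 24h and ERKi 24h) at 0.6 kb upstream, -0.27, -0.18 and -0.55 (4h, ERKi 4h and ERKi 24h) at 0.1 kb, -0.04 (24h) at 87.3 kb, and 0.33 and 0.17 between ERKi 24h and 24h at 85.7 and 95.3 kb. Tgif1 had -0.02 and -0.08 in ERKi 24h at 0.3 and 0.7 kb and -0.1 at 24h at 91.8 kb, and Smad6 0.21 in ERKi 24h at 80.4 kb.

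The number of reads is not in the lists, and 3 libraries per group limit the precision. Exact tests of 3 libraries against 3 cannot pass 0.05, and with the 3 pairs of the replicate block the smallest p is 0.25.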
